A study of Mus musculus with 4 samples.

Results

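The late response of mouse embryonic 3T3 fibroblasts to tumour necrosis factor (TNF) was read from 1 array of cells given TNF for 12 h and 1 array of basal cells, 2 of the 4 arrays of the series. 3T3 cells are an immortal line of fibroblasts. All cells were, per the labels, grown below 90% confluence in medium with 10% calf serum, spent 24 h at low density and were then kept overnight in 0.5% serum. The basal cells were harvested at that point, and the others received TNF at 10 ng/ml for 0.5 or 12 h; the protocol of the 2 h sample names no concentration. By its title the series concerns mRNA stability and the timing of inflammatory genes, but stability itself was not measured on these arrays. No array holds cells that spent the additional 12 h in 0.5% serum without TNF, so an effect of TNF and an effect of more time in low serum cannot be told apart in any value below. In bulk RNA, fewer cells of one state and less RNA per cell also cannot be told apart.

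TNF is a cytokine made mainly by immune cells. In fibroblasts it binds TNF receptor 1 and activates the IkB kinase complex, which marks IkB proteins for destruction and frees the transcription factor NF-kB to enter the nucleus. NF-kB switches on chemokines, adhesion molecules and its own inhibitors within minutes to hours, while other genes follow later through factors that must first be made. Fibroblasts of this kind also turn genes of the cell division machinery on and off as they enter and leave the cell cycle.

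Each array held 45101 probe sets, and 34945 of those outside the controls carried the name of 1 gene, giving 18193 named genes. A gene was represented by its brightest probe set over the 4 arrays, and its signals are given below in the order basal, 0.5 h, 2 h and 12 h. Signals below 102, the 75th percentile of all values, were raised to 102 (the floor), because dim signals scatter widely. The 7160 genes at or over the floor in basal cells or at 12 h were analysed. On the deposited values a gene over it on only 1 of these 2 arrays could differ in that direction only. The 12 h array was dimmer, with a median signal of 19.9 against 22.1 in basal cells, 21.3 at 0.5 h and 20.7 at 2 h, and the median log2 ratio of 12 h to basal over the genes analysed was -0.19. Loess, a smooth curve through the log2 ratios along the signal range, moved that median to 0.01. A gene was called higher or lower, and is said to have risen or fallen, where it differed at least 2-fold both on the deposited values and after loess. With 1 array per group there is no spread between replicates and no test.

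On these terms 45 genes rose, 0.628% of those analysed, and 54 fell, 0.754%. On the deposited values alone 126 genes were lower, 1.76%, while the number higher stayed at 45. The scatter of the ratio between probe sets of like signal, as a scaled median absolute deviation on the log2 scale, was 0.39 around the floor and 0.19 in the brightest class, so a 2-fold difference is less firm in dim genes. Just inside the threshold lay Ddx58, Mvp and Tmem176b on the higher side, with log2 ratios on the deposited values of 1.02, 1.02 and 1.04, and just outside it Bid, Irf1 and Samd9l with 0.97, 0.92 and 0.91. On the lower side the nearest inside were Mad2l1, Hmgb2 and Spc24, with -1.01, -1.02 and -1.03 after loess, and the nearest outside Aurkb, Zfp185 and Slc5a3 with -0.99, -0.99 and -0.98.

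**Figure D1:**
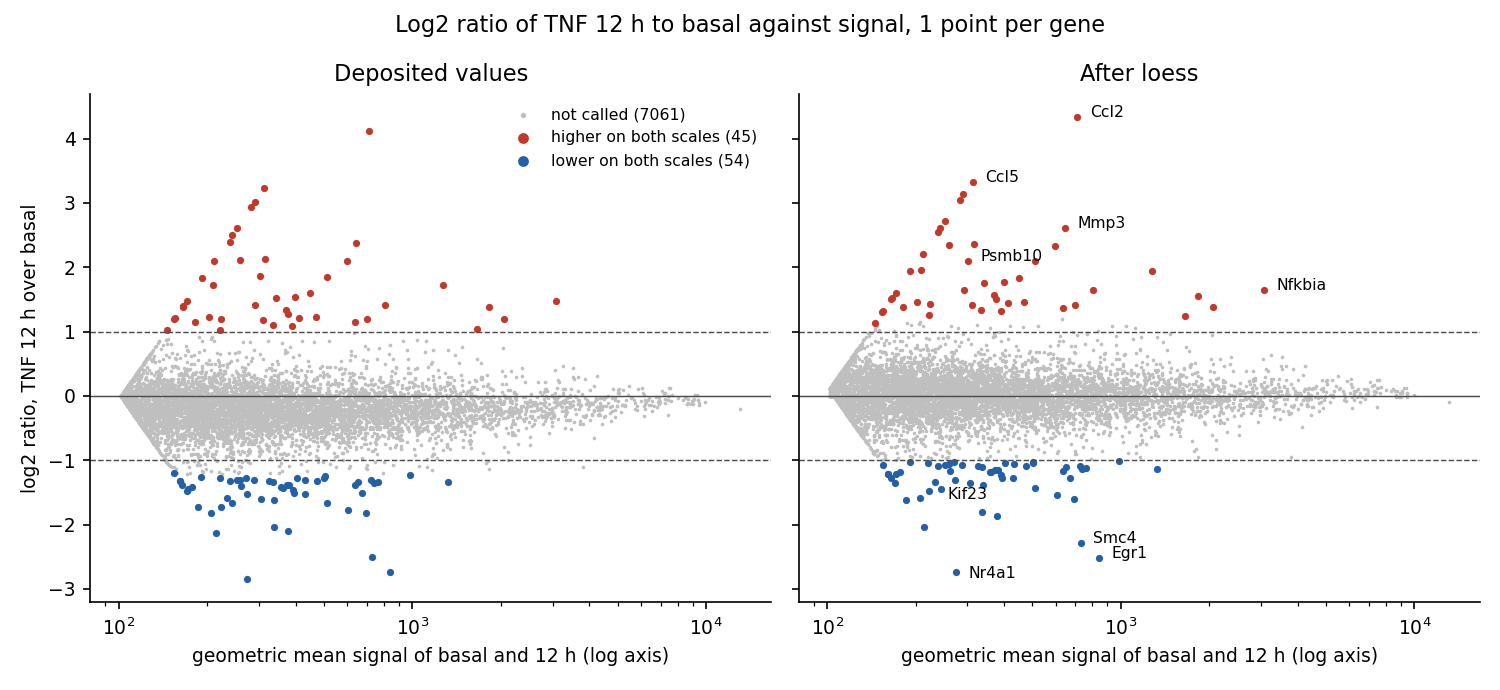
Log2 ratio of the 12 h array to the basal array for 7160 genes, against the geometric mean of both signals (log axis), on the deposited values (left) and after loess (right). Each point is 1 gene with signals raised to the floor of 102, dashed lines mark 2-fold, and the 45 higher and 54 lower genes lie past both lines in both panels; Ccl2 is highest at 4.34 after loess and Nr4a1 lowest at -2.74, a value set by the floor at 12 h.

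The 2 arrays were also compared on control probe sets and on cell type markers. Control probe sets for 18S ribosomal RNA had a median log2 ratio of -0.48 on the deposited values, against -0.09 for the 18 hybridisation controls, -0.07 for Actb and -0.14 for Gapdh control probe sets, and the 3' to 5' signal ratio ranged from 1.21 to 1.26 for Actb and from 0.736 to 0.776 for Gapdh over the 4 arrays. Of 14 fibroblast markers 9 reached the floor in basal cells or at 12 h, with a summed signal of 42143 in basal cells and 41323 at 12 h, but Dcn, Lum, Thy1 and Fap did not. None of 14 macrophage and leukocyte markers and none of 10 endothelial markers reached it on those 2 arrays. Their summed signals went from 299.7 to 325 and from 157 to 184, and 8 of the 14 and 4 of the 10 markers had a higher signal at 12 h than in basal cells. The defining markers Ptprc and Pecam1 were at 6.82 and 6.20 and at 2.47 and 1.89. Cd14, the brightest leukocyte marker, went from 98.2 to 101.8, just under the floor, Lyz2 from 18.04 to 35.3 and Flt1 from 34.7 to 51.7, and the part of such signals in the results was not tested. Of the epithelial, adipocyte and muscle markers only Krt19, Fabp4 and Acta1 reached it, and these had lower signals at 12 h (169.9 to 97.6, 1856 to 1450 and 412 to 324).

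Chemokines, secreted proteins that draw leukocytes, led the genes that rose. Of 17 CC chemokines on the array 5 were analysed and 4 rose. Of 15 CXC and CX3C chemokines 5 were analysed and 4 rose. None fell, and the median log2 ratios on the deposited values were 3.02 and 1.42 against -0.19 over all genes analysed. The rest were under the floor in basal cells and at 12 h. Ccl5, Ccl7, Ccl9, Ccl20 and Cxcl10 were under it in basal cells, so they could only be higher. The filter thus fixes these counts and medians in part. Ccl2, which draws monocytes, gave signals of 170.4, 1641, 2851 and 2961, and was 17.4-fold higher at 12 h than in basal cells on the deposited values and 20.3-fold after loess. Its 3 TNF arrays all lay far above the basal array, and its 2 h and 12 h signals were close to each other. Ccl7, a near relative of Ccl2, followed the same course with 66.0, 417, 681 and 825, and was at least 8.09-fold higher. Ccl20, which draws cells bearing CCR6, went from 12.5 in basal cells to 584 at 0.5 h, 714 at 2 h and 625 at 12 h, a plateau reached on the first TNF array.

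Ccl5 (RANTES), which draws T cells and monocytes, took another course. Its signals were 3.53, 13.6, 165 and 957, so it was under the floor in basal cells and at 0.5 h, and at 12 h it stood at least 9.38-fold above the floor. It was by far highest on the 12 h array. Ccl9 went from 34.2 through 69.4 and 124 to 180.1 and missed the call only because its basal signal counts as the floor. Cxcl12, made by resting fibroblasts, lay near its basal signal on all arrays, with 822, 893, 841 and 796.

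The remaining chemokines peaked before 12 h and stayed above basal. Cxcl1, a neutrophil attractant, had 151, 3211, 1278 and 658, and was 4.35-fold above basal at 12 h although its 0.5 h signal was much higher. Cxcl10, which draws activated T cells, had 66.6, 535, 1777 and 780.3 and was at least 7.65-fold higher at 12 h. Cxcl5 and Cx3cl1 (fractalkine) were 2.68-fold and 2.65-fold higher, and each was highest at 2 h. No cytokine or growth factor among 13 analysed was called (median -0.05 on the deposited values); Csf1, the brightest in basal cells, had 1363, 1912, 2655 and 2024, and Il1rn and Vegfc passed 2-fold after loess alone with log2 ratios of 1.06 and 1.10.

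Among the genes that restrain NF-kB, 4 of 13 analysed rose and none fell; 2 passed where every probe set over the floor had to. Nfkbia encodes IkB-alpha, the inhibitor that NF-kB rebuilds first, and had 1843, 7476, 5826 and 5134; it was 2.79-fold above basal at 12 h. Nfkbie, encoding IkB-epsilon, had 36.5, 86.4, 885 and 576 and was at least 5.65-fold higher. Tnip1, which works with the ubiquitin-editing enzyme A20, had 234, 255, 410.1 and 679, with its highest signal on the 12 h array. These inhibitors thus reached their highest signals on different arrays, Nfkbia at 0.5 h, Nfkbie at 2 h and Tnip1 at 12 h. Tnfaip3, which encodes A20 itself, was highest at 0.5 h with 2521 and stood at 568 at 12 h against 268 in basal cells, 2.12-fold. Nfkbiz, an atypical IkB named here after its values were seen, had come back to 142 at 12 h from 836 at 0.5 h, beside 132 in basal cells. The other members analysed lay between -0.71 (Tax1bp1, the lowest) and 0.55 (Nfkbib) on the deposited values.

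Of 6 NF-kB subunits and kinases only Nfkb2, the precursor of p52, rose. It had 83.1, 113, 240.5 and 236 and was at least 2.31-fold higher, but the second of its probe sets over the floor gave a log2 ratio of 0.54 without the floor, and averaging both ended the call. Rela, the main activating subunit, had 591 in basal cells and 753 at 12 h. Relb, its partner in the slower NF-kB pathway, passed from 20.2 under the floor to 110.4 over it.

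Receptors and signalling proteins rose in few members of their lists. Of 14 genes of innate sensing 3 were higher. Tlr2, a receptor for bacterial lipoproteins, had 104, 335, 833 and 546 and was 5.24-fold higher at 12 h; Ddx58 (RIG-I), a sensor of viral RNA, was at least 2.03-fold higher, with its highest signal at 12 h. Irak1 was 2.31-fold higher on its brightest probe set, while its 3 other probe sets over the floor had log2 ratios of -0.10, -0.19 and -0.55, so its call rests on 1 probe set. Of 14 TNF receptors, Trafs and adaptors 2 rose: Fas, a death receptor, with 132, 159.7, 445 and 309.9, and Birc3 (cIAP2), a survival ubiquitin ligase, with 115, 87.2, 370.1 and 379. Tnfrsf1a, the receptor through which TNF itself signals in these cells, had 529 in basal cells and 437 at 12 h, and the list's median after loess was 0.04, close to the 0.01 of all genes analysed.

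Vcam1, which holds leukocytes to the cell surface, was the only one of 13 adhesion molecules to rise. It had 269, 618, 1293 and 973, 3.61-fold above basal, and both of its other probe sets over the floor were past 2-fold with log2 ratios of 1.14 and 1.33. Icam1 went from 19.1 and 21.5 in the first arrays to 228 and 152, a basal signal too dim for a call. Integrins Itgav and Itgb1 and the hyaluronan receptor Cd44, the brightest others, had log2 ratios of 0.08, -0.12 and 0.46 after loess. No death or survival gene other than Birc5, described below with the kinetochore, was called among 15; Bid stood just outside, with 451, 443, 996 and 885.

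Antigen presentation by MHC class I, by which cells show peptides from their own proteins to T cells, was among the later changes. Of 22 genes on the array 11 were analysed, of which 4 rose and none fell. All 11 lay above 0 after loess, beside 3644 of all 7160 genes analysed, with a median of 0.89 against 0.01. The dim members not analysed went both ways, from -0.66 (H2-Ke6) to 4.13 (Psmb8) on the deposited values without the floor. Psmb10, a catalytic subunit of the immunoproteasome that cuts peptides for presentation, had 159, 153, 373 and 577 and was 3.64-fold higher. Tapbp (tapasin), which loads peptides, had 1135, 1192, 1815 and 2946, 2.6-fold higher. H2-D1 and H2-K1, the classical heavy chains, went from 257 to 782 and from 206 to 467. In all 4 genes the 12 h array was the highest. The heavy chains are near-identical copies of each other, so their probe sets cannot be taken as separate genes; a second H2-K1 probe set went from 88.9 to 604. Where every probe set over the floor had to pass, 2 of the genes passed; a dimmer Tapbp probe set had a log2 ratio of 0.74.

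Median signals of this list changed little on the earlier arrays. Its median log2 ratio to basal on the deposited values was 0.06 at 0.5 h, 0.08 at 2 h and 0.73 at 12 h, while that of all genes analysed was -0.05, -0.11 and -0.19. These comparisons share the basal array. B2m, the light chain, was bright in basal cells and had 5689, 5491, 5355 and 6079. Psmb8 and Psmb9, immunoproteasome subunits like Psmb10, stayed under the floor, at 1.35 and 23.6 and at 4.30 and 4.29 in basal cells and at 12 h. The 34 genes of the constitutive proteasome included none higher or lower. Their median after loess was 0.01, with Psmb7, one of the brightest, at 4083 and 3740.

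Of 42 antiviral genes on the array that interferon can induce, 19 were analysed, of which 2 rose and none fell. After loess 18 of the 19 lay above 0 (median 0.38), beside 3644 of all 7160 genes analysed. Members under the floor in basal cells, such as Bst2, could only be higher. The dim members not analysed went both ways, from -1.16 (Ifi203) to 5.55 (Oasl2) on the deposited values without the floor. Ifitm3, which blocks entry of enveloped viruses, had 698, 784, 1213 and 2319, 3.32-fold higher. Bst2 (tetherin), which holds virus particles at the cell surface, had 97.9, 99.7, 91.8 and 266, so it was at least 2.61-fold higher and only the 12 h array stood out. Ifitm2, Ifi35 and Lgals9, the brightest others, had log2 ratios of 0.45, 0.85 and 0.13 after loess. Irf1, an early interferon regulatory factor, was highest at 0.5 h and still stood at 284 against 151 at 12 h, just short of 2-fold on the deposited values.

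Matrix-degrading enzymes rose in 2 of 18 members, both of them collagenase-activating or collagen-cutting. Mmp3 (stromelysin 1) had 282, 329, 495 and 1471 and was 5.22-fold higher. Mmp13 (collagenase 3) had 36.0, 55.6, 143 and 437 and was at least 4.29-fold higher. Both were highest at 12 h, and most of their increase lay between the 2 h and 12 h arrays. The other matrix proteases were not called, the lowest at -0.64 after loess, with Ctsl, Ctsb and Ctsz, the brightest, at -0.03, 0.07 and 0.09. At a 1.5-fold threshold 3 members of the list were higher. Mmp10, under the floor on every array and so not analysed, had 19.4, 20.4, 31.8 and 95.3. Among 9 protease inhibitors only Serpinf1, encoding pigment epithelium-derived factor, rose, with 463, 497, 542 and 1055, and Cst3 and Timp2, the brightest others, had 0.00 and -0.07.

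No gene of the matrix itself was called. None of 25 collagens and collagen-processing genes passed 2-fold on both scales, with a range after loess of -0.62 to 0.78, and none of 24 other matrix proteins did. Col1a2 had 4869, 4992, 5093 and 4737, and Sparc, a collagen-binding protein, had 5972, 5897, 5745 and 6203. Ccn1, a matricellular protein that serum induces, was lower on the deposited values alone, with 5602, 5816, 3383 and 2593 and a log2 ratio of -1.11 (-0.95 after loess).

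Of 24 complement and acute phase genes on the array 6 were analysed, of which 2 rose. C1s1, a protease that starts the classical complement pathway, had 233, 246, 304 and 587, and Ptx3, a secreted pattern recognition protein, had 1354, 1967, 2843 and 3114. C1s1 changed mostly after 2 h, whereas Ptx3 was already well above basal on the first TNF array. The list's median after loess was 0.83, and its members ranged from 0.18 to 1.57. Lcn2, an iron-scavenging acute phase protein, was at 11.1 in basal cells and 11.3 at 0.5 h, and reached 158 at 12 h. Members under the floor in basal cells, such as Lcn2, could only be higher, so the filter in part fixes the median and range. The dim members not analysed went both ways, from -0.44 (C2) to 4.87 (Chil1) on the deposited values without the floor.

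**Figure D2:**
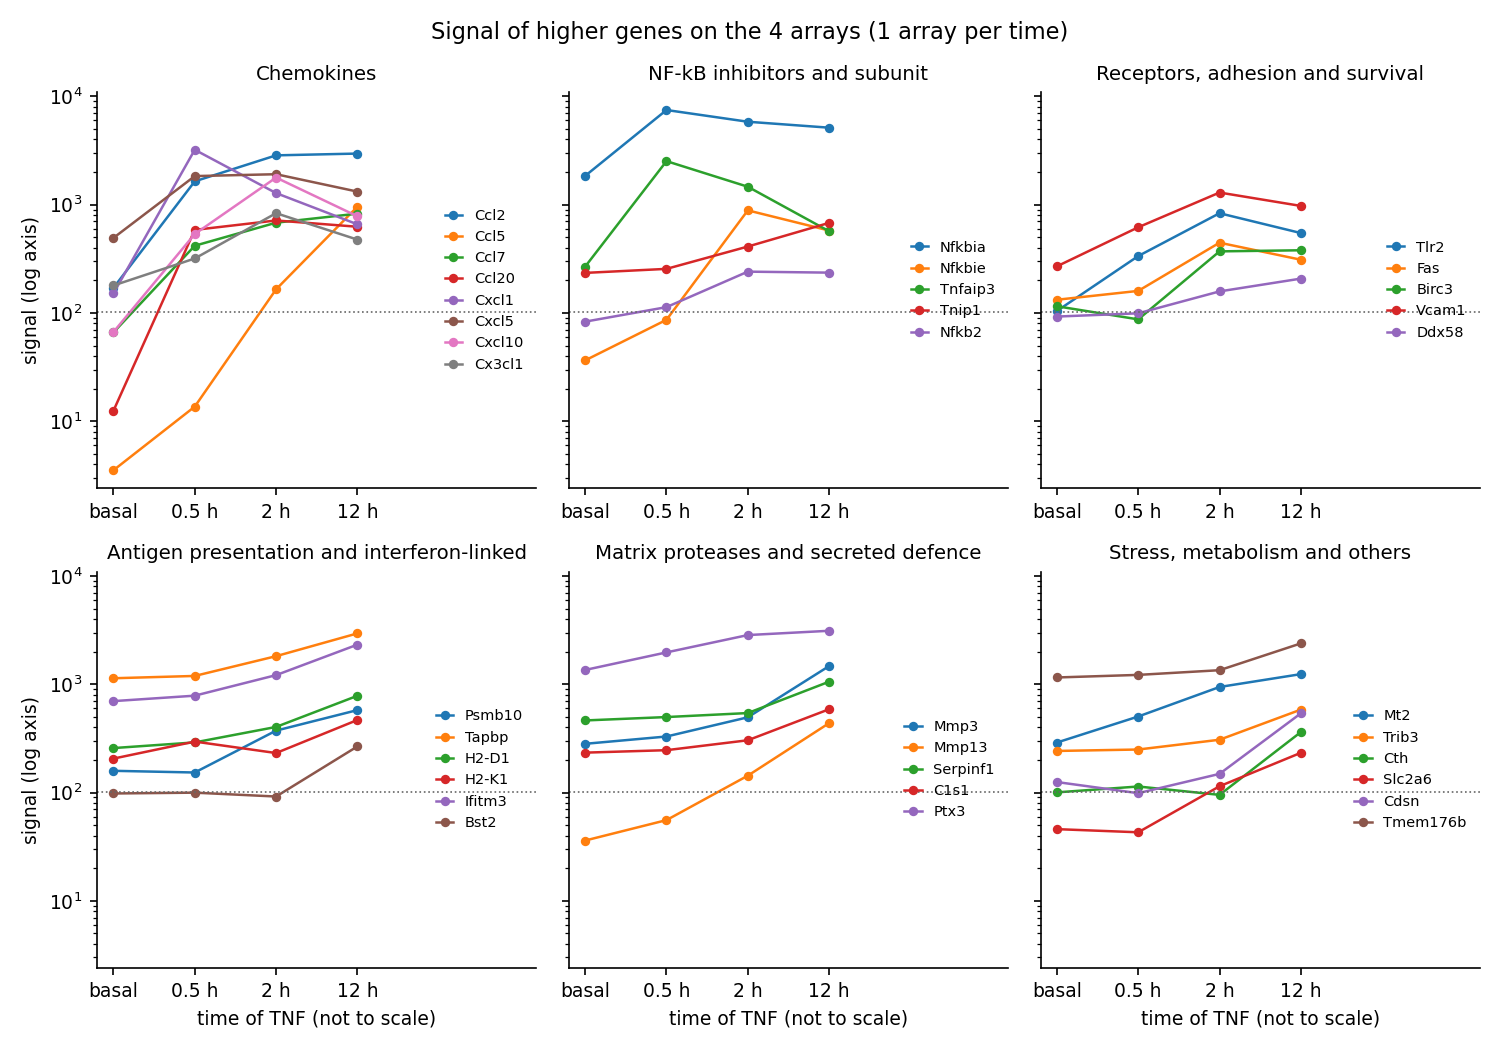
Signal (log axis) of 35 of the 45 genes that rose, on the basal, 0.5 h, 2 h and 12 h arrays, 1 array per time and 1 line per gene; the dotted line is the floor of 102. Most chemokines and NF-kB inhibitors climb on the first TNF arrays, while Mmp3, Mmp13, Bst2, Serpinf1, Cth and Cdsn climb mainly between 2 h and 12 h.

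Several of the remaining genes that rose belong to stress and metabolism. Mt2, a metallothionein that binds zinc and copper, had 289, 503, 943 and 1239, 4.28-fold higher, whereas Mt1 had 592, 671, 874 and 816 and was not called. Trib3, a pseudokinase induced by amino acid shortage, had 242, 249, 307 and 583, and was the 1 gene called of 32 in amino acid stress and the unfolded protein response. Of those 32, 27 lay above 0 after loess (median 0.33), beside 3644 of all 7160 genes analysed. Psph and Shmt2, enzymes of serine metabolism named after their values were seen, passed 2-fold after loess alone. Their signals were 690.1, 624, 683 and 1255 and 829.7, 756, 887 and 1497. Cth, which makes cysteine from cystathionine, had 100.3, 114, 95.1 and 362. Slc2a6, a glucose transporter family member, had 45.9, 42.9, 114 and 233, and was the only one of 15 genes of glycolysis and glucose uptake called. S1pr3, a receptor for the lipid sphingosine 1-phosphate, had 103, 139, 338 and 286.

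Among genes in no list, Cdsn (corneodesmosin, known from skin) had 125, 98.6, 149 and 538, a 4.31-fold difference that appeared only at 12 h. Rnd1, which loosens the actin cytoskeleton, had 202, 515, 589.6 and 579 and was high on all 3 TNF arrays. Tmem176b, Cyb5r1, Snhg12, Mvp, U90926, Flrt2, Lsm7 and Clcn5 were the others, between 2.03-fold (Mvp) and at least 2.65-fold (U90926). Clcn5 was 2.34-fold higher on its brightest probe set, while a second probe set, with a like signal of 326 in basal cells, had a log2 ratio of -0.36.

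By time, 30 of the 45 genes that rose had their highest signal at 12 h, 12 at 2 h and 3 at 0.5 h. This follows in part from choosing genes by their 12 h signal, as do the medians at the end of this paragraph. With the floor, 12 were already at least 2-fold above basal at 0.5 h and 21 at 2 h. At 2 h, with the floor, 14 genes were still under 1.5-fold: Cdsn, Mmp13, Cth, C1s1, U90926, Trib3, Bst2, H2-K1, Serpinf1, Cyb5r1, Snhg12, Slc2a6, Mvp and Tmem176b. For Mmp13 (36.0 to 143) and Slc2a6 (45.9 to 114) the basal signal lay under the floor, so their 2 h fold is only a lower bound and they are not shown to be that late. None of the 14 is a chemokine or an NF-kB inhibitor. Over all 45 genes the median log2 ratio to basal with the floor was 0.17 at 0.5 h, 0.81 at 2 h and 1.42 at 12 h.

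A further 12 genes (0.168%) were at least 4-fold higher on both scales without the floor, reached the floor at 12 h and were not called because their basal signal lay under it. This criterion was added after seeing the data. They were Casp4, Gbp2, Lcn2, Icam1, Abca1, Ubd, Ch25h, Gch1, Relb, Cd74, Ccl9 and Xaf1. Casp4, an inflammatory caspase, went from 4.0 through 15.8 and 83.3 to 160.4, and Gbp2, an interferon-inducible GTPase, from 9.92 to 147. Ubd, a ubiquitin-like modifier, went from 20.8 to 142, and Ch25h, which makes 25-hydroxycholesterol, from 26.5 to 156. Their folds have no firm size, since signals this dim scatter. In the opposite direction only 4 genes (0.0559%) met the same terms, Fos, Nrk, Nwd1 and Ces5a.

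Promoters of the genes that rose were searched for 3 motifs on both strands, in windows of 300 bases around each start from RefSeq (GRCm38.p6), which covered 38 of the 45 genes and 5899 of the 7160 analysed. The kappaB consensus, the site NF-kB binds, was found in 17 of the 38 (44.7%) against 12.3% of the genes analysed and 9.55% of all genes with a promoter. The core of the interferon-stimulated response element, GAAANNGAA, was in 8 (21.1%) against 8.04% and 9.76%, and the AP-1 site TGANTCA in 10 (26.3%) against 5.41% and 8.97%. Genes can have several windows, 1.29 on average in the group that rose and 1.28 in those analysed. Of single windows 8.46%, 8.56% and 7.81% held the 3 motifs. A match is a description of the letters and does not show that a factor binds there.

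The stretches below come from the promoters of 8 genes described above, each chosen because it holds a match near the start. They are read 5′ to 3′ on the gene's strand, with matches to the 3 motifs in capitals and positions counted from the start site. Cxcl10 holds kappaB matches, an ISRE core and an AP-1 site in 1 stretch. Nfkbie, Tnip1, Nfkbia and H2-D1 hold the kappaB consensus, which in Tnip1 and H2-D1 matches on both strands at overlapping places, and Nfkbia also holds an ISRE core on the opposite strand. Bst2 holds a kappaB match beside overlapping ISRE cores, and Mmp3 and Mmp13 an AP-1 site.
Cxcl10 (chr5:92348950-92349109, minus strand, positions -220 to -61): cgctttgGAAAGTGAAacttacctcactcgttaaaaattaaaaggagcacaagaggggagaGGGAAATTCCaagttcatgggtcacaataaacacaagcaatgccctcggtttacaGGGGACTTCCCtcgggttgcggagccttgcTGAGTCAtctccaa
Nfkbie (chr17:45555570-45555619, plus strand, positions -130 to -81): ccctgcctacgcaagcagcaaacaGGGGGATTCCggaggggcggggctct
Tnip1 (chr11:54962971-54963020, minus strand, positions -80 to -31): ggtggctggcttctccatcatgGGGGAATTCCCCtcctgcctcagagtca
Nfkbia (chr12:55492658-55492707, minus strand, positions -60 to -11): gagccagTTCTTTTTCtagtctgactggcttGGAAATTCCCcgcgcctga
H2-D1 (chr17:35262899-35262948, plus strand, positions -195 to -146): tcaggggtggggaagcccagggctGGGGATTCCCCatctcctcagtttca
Bst2 (chr8:71537583-71537632, minus strand, positions -160 to -111): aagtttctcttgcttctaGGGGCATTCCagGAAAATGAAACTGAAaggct
Mmp3 (chr9:7445752-7445801, plus strand, positions -70 to -21): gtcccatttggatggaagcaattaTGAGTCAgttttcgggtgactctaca
Mmp13 (chr9:7272454-7272503, plus strand, positions -60 to -11): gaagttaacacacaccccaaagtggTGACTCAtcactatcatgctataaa

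Of the 54 genes that fell 28 belonged to lists of mitosis and the cell cycle. In 5 lists of mitotic genes 124 were analysed, of which 26 fell and none rose, while on the deposited values alone 46 were lower. After loess 117 of the 124 lay below 0 (94.4%, against 47.6% of all genes analysed), with a median of -0.62, and -0.82 on the deposited values. The median log2 ratio to basal on the deposited values was -0.09 at 0.5 h, -0.33 at 2 h and -0.82 at 12 h, beside -0.05, -0.11 and -0.19 for all genes. Of 48 of these genes with more than 1 probe set over the floor, 47 had all of them below 0 on the deposited values. On that scale the dimmer 12 h array put the median of all genes analysed at -0.19 as well. The like share over all genes was not counted, so the 47 of 48 cannot be set against it.

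Condensin and cohesin, ring complexes that compact and hold chromosomes, included the mitotic gene with the largest difference. Smc4, a core subunit of condensin, had 1737, 1337, 993 and 306, 5.67-fold lower on the deposited values and 4.85-fold after loess. Its 2 other probe sets over the floor were lower by less, with log2 ratios of -1.11 and -1.12 against -2.50 on the deposited values. After loess they had -0.88 and -0.89, short of 2-fold. The size thus depends on the probe set, and the call rests on 1 probe set. Smc4 was the only one of 23 genes called, although 21 of 23 lay below 0 after loess. Smc2, Ncapg and Ncapg2, further condensin subunits, were lower on the deposited values alone (-1.17, -1.07 and -1.02). Rad21 and Smc1a of cohesin, the brightest, had -0.44 and -0.34 after loess.

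Of 32 kinetochore and checkpoint genes 8 fell. Ska1, which couples kinetochores to microtubules, had 284, 278, 217 and 95.2, at least 2.78-fold lower. Spc25, Nuf2 and Spc24, subunits of the NDC80 complex that grips microtubules, went from 593 to 220.4, 342 to 142 and 295 to 123. Ndc80 itself was lower on the deposited values alone, from 284 to 136. Cenpa, the histone variant that marks centromeres, had 1211, 1109, 897 and 478, and Cenpp, a centromere protein, had 289.8, 239.7, 233 and 108. Birc5 (survivin), of the chromosomal passenger complex, had 1028, 998, 857 and 394, and Mad2l1, a checkpoint protein, 1507, 1369, 1125 and 644. In each of these 8 genes most of the decrease lay between the 2 h and 12 h arrays. Bub3 and Zwint, among the brightest others, lay near the bulk of genes with -0.05 and 0.11 after loess.

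Of 30 mitotic kinases, phosphatases and cyclins 6 fell, and all 30 lay below 0 after loess. Aurka, the kinase of spindle poles, had 725, 602, 459.7 and 254, 2.86-fold lower. Bub1, a checkpoint kinase, had 603, 549.7, 445 and 230.4. The cyclins Ccna2 and Ccnb2 went from 1038 to 409.5 and from 1184 to 461. Ube2c, the ubiquitin carrier of the anaphase-promoting complex, had 2109, 1890, 1544 and 832, and Cdkn3, a phosphatase of Cdk1, had 406, 379, 322 and 165. Cdk1, the kinase that drives mitosis, and Cdc20, which activates the anaphase-promoting complex, were lower on the deposited values alone, with log2 ratios of -1.09 and -1.01 (-0.88 and -0.82 after loess). Cks1b, the brightest, had -0.18.

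Of 10 mitotic kinesins, motors that move along spindle microtubules, 3 fell. Kif23, of the central spindle, had 403, 370.0, 308 and 135, 2.98-fold lower. Its second probe set over the floor had a log2 ratio of -1.35 without the floor. With the floor only 1 of the 2 Kif23 probe sets, the brightest, was past 2-fold. Kif20a, which also acts at the central spindle, had 583, 491, 418 and 218, and Kif11, which pushes spindle poles apart, 254, 236, 160.2 and 88.7. The 2 other Kif11 probe sets over the floor had log2 ratios without the floor of -1.14 and -0.92 (-0.92 and -0.71 after loess). With the mean of the probe sets, or with all of them required to pass, 1 of the 3 kinesins was called. All 10 mitotic kinesins lay below 0 after loess (median -0.60). None of 11 transport kinesins, which carry cargo in cells that do not divide too, was called (median -0.11), and Kif5b, the brightest, had -0.65.

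Of 30 spindle and centrosome proteins 8 fell, and 17 were lower on the deposited values. Shcbp1, of the midbody, had 683, 554, 439 and 166, 4.11-fold lower. Dlgap5, which stabilises spindle fibres, had 387, 349, 273 and 109.8. Ckap2, Hmmr and Nusap1, microtubule-binding proteins, were 3.08-fold, 3.02-fold and 2.51-fold lower, and all 4 Hmmr probe sets over the floor were below 0. Mki67, the antigen Ki-67 used to count dividing cells, had 616, 597, 481 and 235. Arhgap11a and Cdca3 went from 676 to 275 and from 1140 to 458. Tubb5, a tubulin, had -0.17, close to the bulk of genes.

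**Figure D3:**
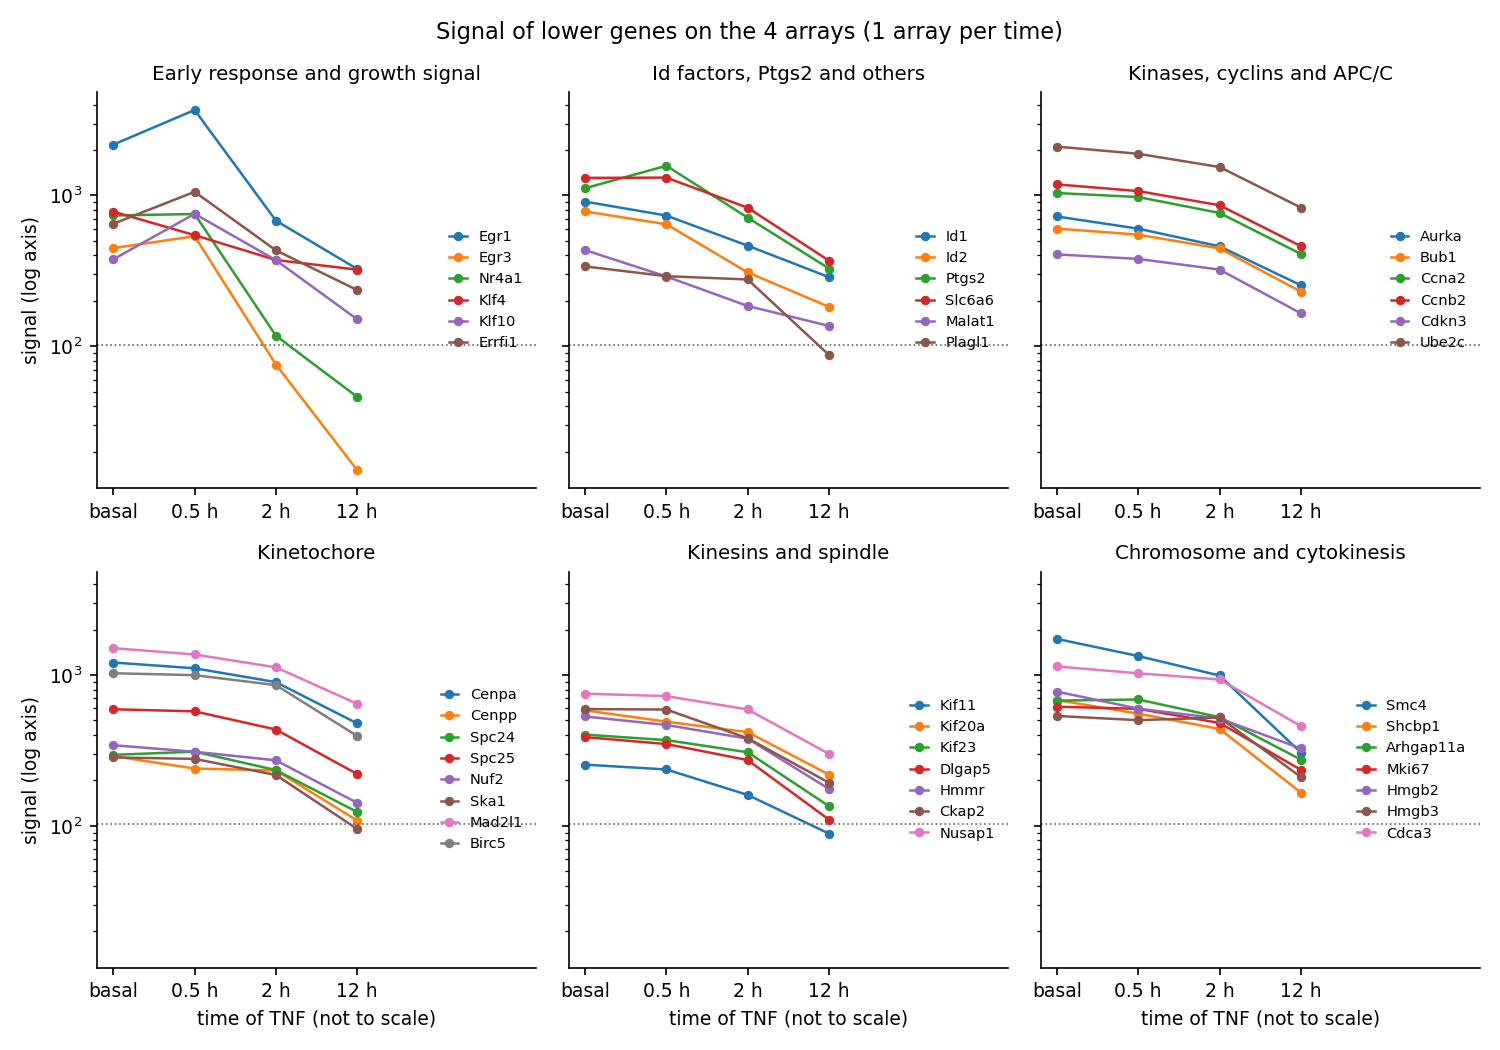
Signal (log axis) of 40 of the 54 genes that fell, on the 4 arrays, 1 array per time and 1 line per gene; the dotted line is the floor of 102. Egr1, Klf10, Errfi1 and Ptgs2 climb at 0.5 h and then drop below basal, whereas the mitotic genes stay near basal at 0.5 h and are lowest at 12 h.

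Genes that act earlier in the cell cycle lay lower too, but rarely by 2-fold. Of 39 genes of DNA replication and the G1/S step none was called, although 36 were below 0 after loess (median -0.31). Pcna, the replication clamp, had 4344, 4307, 3734 and 3214, and Rrm2, which makes deoxynucleotides, 2102, 1982, 1625 and 1199. Tk1 was lower on the deposited values alone, at -1.06. Of 21 chromatin genes of dividing cells Hmgb2 and Hmgb3, DNA-bending proteins, fell, with 777, 599, 515 and 326 and 535, 502, 523 and 211, and Top2a was lower on the deposited values alone (-1.07).

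Regulators of the cycle had smaller differences. None of 15 E2F, RB, DREAM and FOXM1 genes, none of 13 DNA repair genes and none of 22 D cyclins, CDK inhibitors and p53 targets was called, with medians after loess of -0.28, -0.26 and -0.08. Cyclins Ccnd2 and Ccnd1, which respond to growth factors, had 0.15 and -0.20. Cdkn1a (p21), a p53 target that halts the cycle, was named after its values were seen and had 134, 155, 184 and 89.6. Mki67, Top2a and the other markers of dividing cells thus moved with the whole of the cell division result, and their share in it was not tested.

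Promoters of 19 of the 26 mitotic genes that fell were given by RefSeq. The cell cycle genes homology region (CHR), TTTGAA, through which the MuvB complex acts, was found in 13 (68.4%) against 14.1% of the genes analysed and 20.2% of all genes. The CCAAT box, the site of NF-Y, was found in 14 (73.7%) against 43.2% and 41.1%. Among 21 promoters of the other genes that fell the shares were 14.3% and 47.6%. Of single windows 17.9% and 37.4% held the motifs. No AP-1 site lay in any of the 40 promoters of genes that fell, against 5.41% of the genes analysed and 8.97% of all genes. With so few promoters and so low a share, this absence says little. The kappaB consensus lay in 7 of the 40 (17.5%), against 12.3% and 9.55%.

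Stretches from 5 promoters that hold both motifs close to the start, and from Ccnb2, a B cyclin, follow, with matched bases in capitals, read 5′ to 3′ on the gene's strand; capitals mark only these 2 motifs, and TTCAAA and ATTGG are CHR and CCAAT on the opposite strand. The stretch from Ccnb2 holds 3 CCAAT boxes, and CHR lies outside it, at positions -167 and 5 of the window. Mki67 holds CHR at 2 places, and Ube2c and Hmgb3 hold CCAAT at 2.
Ube2c (chr2:164769824-164769923, plus strand, positions -105 to -6): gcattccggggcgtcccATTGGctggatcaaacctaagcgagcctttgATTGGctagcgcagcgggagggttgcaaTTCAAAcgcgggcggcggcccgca
Kif11 (chr19:37376322-37376376, plus strand, positions -60 to -6): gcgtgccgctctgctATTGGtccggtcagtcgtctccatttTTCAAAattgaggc
Arhgap11a (chr2:113848732-113848781, minus strand, positions -120 to -71): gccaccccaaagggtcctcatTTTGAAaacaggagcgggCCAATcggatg
Mki67 (chr7:135716460-135716529, minus strand, positions -150 to -81): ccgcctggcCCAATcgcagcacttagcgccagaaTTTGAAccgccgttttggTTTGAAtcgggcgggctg
Hmgb3 (chrX:71555787-71555876, plus strand, positions -130 to -41): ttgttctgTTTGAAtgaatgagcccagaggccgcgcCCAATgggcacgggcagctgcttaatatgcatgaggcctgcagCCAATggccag
Ccnb2 (chr9:70421565-70421649, minus strand, positions -95 to -11): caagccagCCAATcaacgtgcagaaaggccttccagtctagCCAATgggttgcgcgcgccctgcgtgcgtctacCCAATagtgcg

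Early response factors, which serum and growth factors switch on within minutes, formed the other main group among the genes that fell. Of 21 analysed 5 fell and none rose, with a median of -0.47 after loess. Nr4a1, an orphan nuclear receptor, had 736, 753, 117 and 46.1, at least 7.22-fold lower. Egr1, a zinc finger factor, had 2174, 3688, 680.5 and 325, 6.68-fold lower, and its relative Egr3 448, 537, 75.5 and 15.0, at least 4.39-fold lower. The folds of Nr4a1 and Egr3 are bounds set by the floor and so have no order; without it their log2 ratios were -4.00 and -4.90. Egr1 was higher at 0.5 h than in basal cells and then lower on both later arrays, while Nr4a1 and Egr3 were already far below basal at 2 h.

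Klf10 and Klf4, zinc finger factors, had 377, 755, 372 and 151 and 782, 545, 373 and 322. Klf10 was well above basal at 0.5 h and back at its basal signal at 2 h. Klf4 was lower on each TNF array on its brightest probe set. A second Klf4 probe set over the floor had 127.7, 143.6, 99.6 and 87.4, with a log2 ratio of -0.55, so the call rests on 1 probe set. Ier2, Klf2 and Srf, the last of which drives many early genes, were lower on the deposited values alone (-1.13, -1.21 and -1.20). Fos had 151, 526, 97.9 and 22.6. The CArG box, where SRF binds, was found in 1 of the 40 promoters of genes that fell (2.5%), against 1.64% of the genes analysed and 1.81% of all genes with a promoter.

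Growth signal feedback and differentiation factors had a few members among the genes that fell. Errfi1, an inhibitor of the EGF receptor, had 649, 1057, 432 and 236 and was the only one of 9 genes of MAP kinase feedback called; Dusp1, the brightest, had 0.05 after loess. Id2 and Id1, inhibitors of helix-loop-helix factors that BMP signals induce, had 784, 644, 309 and 182 and 910.3, 736, 464 and 287, 4.3-fold and 3.17-fold lower, with lower signals on each TNF array than on the one before. Id3 was lower on the deposited values alone, with 1647, 1739, 1152 and 768. Of 26 TGF-beta, BMP and Smad genes none was called (median -0.25), and Tgfbr2 and Ltbp1, bright in basal cells, had 0.34 and 0.23.

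Ptgs2, encoding cyclooxygenase 2, had 1116, 1574, 712 and 328; it was above basal at 0.5 h and 3.41-fold below it at 12 h. Slc6a6, the taurine transporter, had 1308, 1313, 829 and 369, 3.54-fold lower, and a second probe set of it missed 2-fold with a log2 ratio of -0.96. Malat1, a nuclear long non-coding RNA, had 434, 289.9, 185 and 136. Its 3 probe sets over the floor were lower, with log2 ratios between -1.86 and -1.11 on the deposited values without the floor. With the floor 2 of the 3 were past 2-fold on that scale, and the one at -1.11 had -0.89 after loess. The call thus rests on 1 probe set. Malat1 was the 1 gene called of 32 splicing factors and nuclear RNA-binding genes, of which 30 lay below 0 after loess with a median of -0.18. Plagl1, a zinc finger factor, had 338, 291, 277 and 87.4.

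The genes in no list that fell were Knstrn, Gas2l3, Diaph3, Cip2a, Evi5, Lima1, Rflnb, Npepps, Cbl, Zfp267, Irf2bpl, Irx3, Nrn1 and Cdo1, with Plagl1. Knstrn, a spindle protein, had 424, 393, 302 and 160.4, and Gas2l3, which links actin and microtubules, 403, 338, 240.5 and 123. Lima1, an actin-bundling protein, had 1133, 886, 649 and 397. For Cbl, Npepps and Evi5 a second probe set over the floor was lower by far less, with log2 ratios of -0.24, -0.31 and -0.41 against -1.69, -1.53 and -1.30 for the brightest.

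All 54 genes that fell had their lowest signal at 12 h, and in all 54 the 2 h signal lay between basal and 12 h; both follow in part from choosing genes by their 12 h signal. With the floor, 6 were at least 2-fold lower at 2 h and 29 were under 1.5-fold. The 26 genes of the mitotic lists had a median log2 ratio to basal of -0.13 at 0.5 h, -0.44 at 2 h and -1.39 at 12 h, and the other 28 had -0.13, -0.66 and -1.51.

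Agreement between probe sets differed between the groups. Of the 45 genes that rose, 15 had more than 1 probe set over the floor, and in 13 of these all had the same sign; Irak1 and Clcn5 were the exceptions. Of the 54 that fell, 20 had more than 1, and in all 20 the signs were the same. On the deposited values with the floor, all such probe sets were past 2-fold in 5 of the 15 and 6 of the 20. Loess was not part of that count, and a second Hmgb2 probe set, for example, had -0.98 after it. Over 1536 genes with 2 probe sets over the floor on both arrays, the log2 ratios of the pair differed by a median of 0.15, with a 90th percentile of 0.43, and in 0.26% by 2-fold or more.

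**Figure D4:**
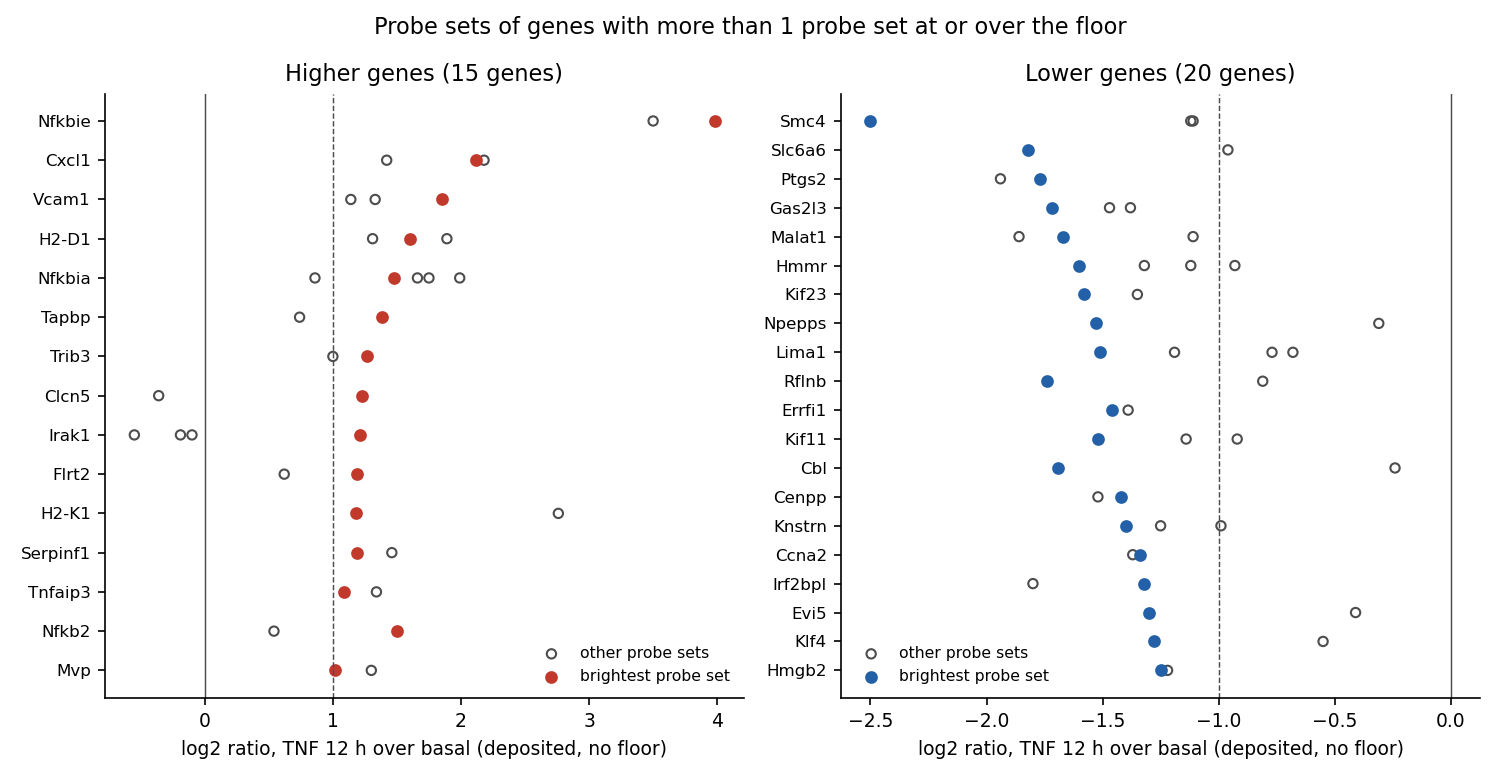
Log2 ratios of 12 h to basal, on the deposited values without the floor, for every probe set over the floor of called genes that have more than 1 (15 higher genes on the left, 20 lower genes on the right). Filled points are the brightest probe set of a gene and open points the others; solid lines mark 0 and dashed lines 2-fold, and only Irak1 and Clcn5 have points on the other side of 0.

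Groups that hold much of a fibroblast's RNA stayed close to the bulk of genes. Of 32 ribosomal protein genes none was called (median 0.07 after loess). Rps27 alone was lower on the deposited values (-1.02). None of 29 contractile and SRF target genes was called (median -0.01), with Acta2, smooth muscle actin, at 9293, 9509, 9465 and 9379. Of 23 sterol synthesis genes, 20 heat shock and chaperone genes and 11 C/EBP and adipocyte fate genes none was called either, with medians of -0.11, -0.01 and -0.16.

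**Figure D5:**
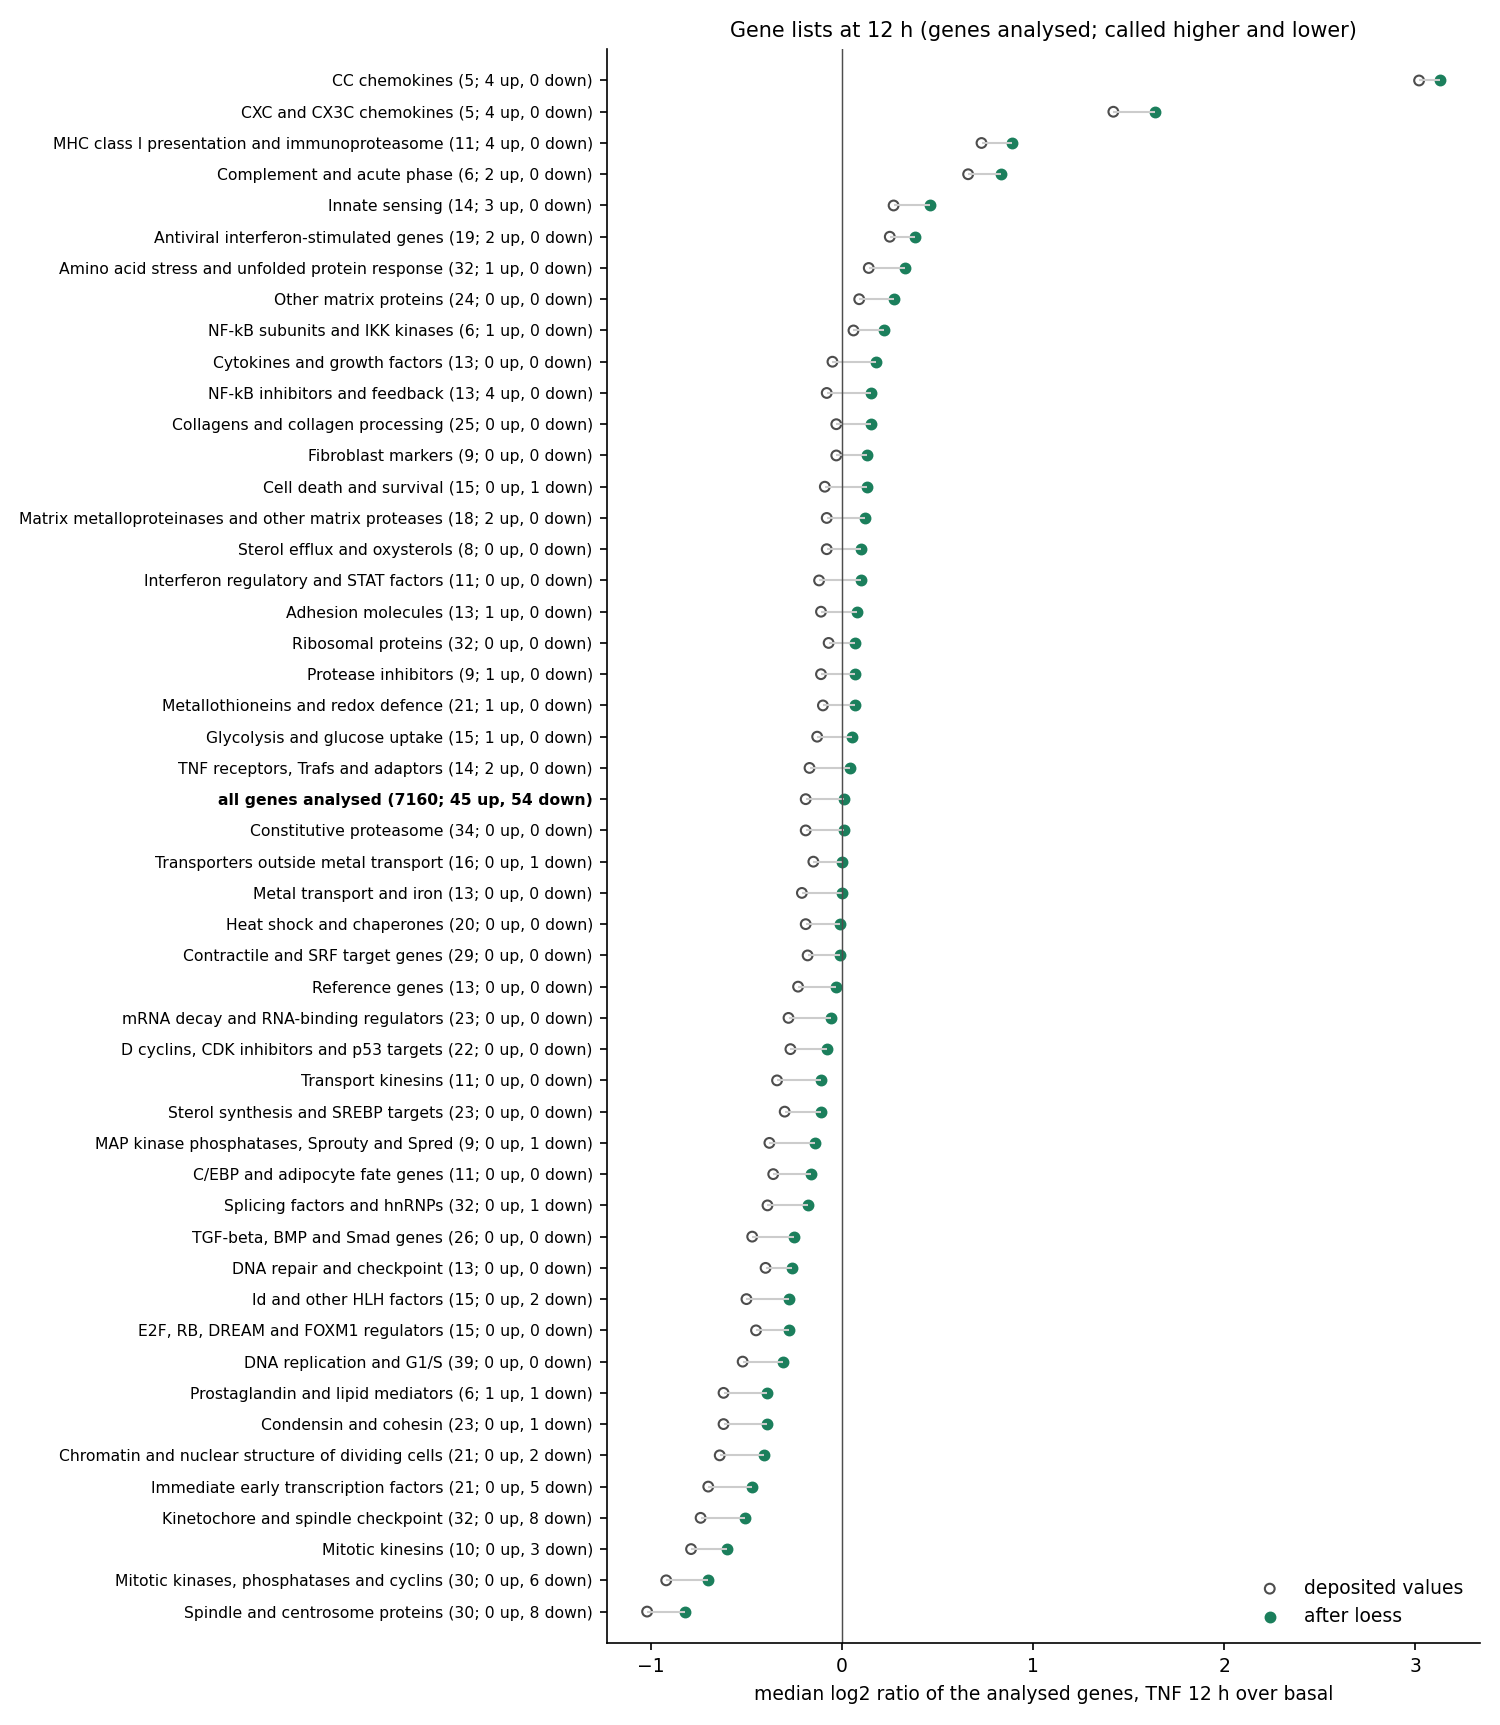
Median log2 ratio of 12 h to basal over the analysed genes of each list with at least 5 of them, on the deposited values (open) and after loess (filled), with signals raised to the floor; brackets give the number analysed and the numbers called higher (up) and lower (down). Chemokine lists stand highest (3.13 and 1.64 after loess) and the spindle list lowest (-0.82), while all genes analysed lie at 0.01.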

How the data were processed

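RNA of mouse 3T3 cells was measured on 4 Affymetrix Mouse Genome 430 2.0 arrays, 1 per group, from 8 ug of total RNA, per the labels' protocols. The authors deposited linear probe set intensities; how the signals were summarised or scaled between arrays is not given in the sources used here, and no detection calls were used. The arrays differ in median intensity, which sets the number of genes lower on the deposited values. Probe sets were named through the platform annotation, with 34897 of 34945 names found in RefSeq, and 932 that name several genes were left out. The floor (102) was set after scaling. Loess used a span of 0.3 and 3 robust iterations, shared evenly between both arrays (Python 3.11.15, numpy 2.4.6, pandas 2.3.3, statsmodels 0.14.6, matplotlib 3.10.9). The calling was run on simulated arrays, with the 12 h array dimmed evenly and changes put only into genes well above the floor. That run does not cover changes in dim genes or an uneven shift. Log2 ratios are of 12 h over basal. With 1 array per group the only error given is scatter between probe sets, and the number of arrays limits the precision.

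The genes, the 55 gene lists and the rules were chosen with earlier results of these data known, so no list was tested and no p-value is given. Of 1283 list genes on the array 864 were analysed. Named genes were the 20 largest increases and decreases among those called, up to 6 called members of each list with its 3 brightest members not called, members lower on the deposited values alone, those nearest the threshold, and genes whose probe sets disagree. Other genes, named to account for every call or for a known role, were picked with their values in view. The 0.5 h and 2 h arrays share the basal array with the 12 h comparison, so their ratios are given side by side only.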

Additional observations from a re-analysis of the deposited data

How the results depend on the processing

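The count of 45 genes higher became 68 after quantile normalisation, 129 at a 1.5-fold threshold and 18 at 3-fold. With the floor at the 30th, 50th or 90th percentile (9.09, 21 or 378) it became 454, 121 or 16. The count of 54 genes lower became 126 on the deposited values alone, 271 at 1.5-fold and 9 at 3-fold, and 524, 153 or 13 with those floors. Loess alone gave 67 higher and 54 lower where the deposited values gave 45 and 126, so scaling moves the split between directions. Centring on the hybridisation controls gave 48 higher and 91 lower, and a 4-fold threshold without a floor gave 25 and 8, of which 13 and 4 were among the genes called; both of these alternatives were chosen after seeing the data. Median centring, averaging of probe sets and the demand that every probe set pass kept both of these counts within 1.5 times. With that demand 35 genes were higher and 38 lower. But 30 of the 45 and 34 of the 54 genes had only 1 probe set over the floor. Averaging and that demand could hardly change their calls, so the steadiness of these counts is largely set in advance. Counts of called list members were less steady: of 29, 9 moved by more than 1.5 times where every probe set had to pass, 3 with averaging (mitotic kinesins 3 to 1, NF-kB subunits 1 to 0, splicing factors 1 to 0) and 1 with median centring. The 9 were those 3, NF-kB inhibitors (4 to 2), class I presentation (4 to 2), chromatin (2 to 1), and condensin, amino acid stress and transporters (each 1 to 0). All 99 genes called were past 2-fold after loess by the rule of calling, and they stayed so with median centring or quantile normalisation. The median shift was alike over the signal classes (-0.24 to -0.15), so median centring differs little from loess and was no separate check. With the mean of probe sets 89 stayed past 2-fold, 10 fell short and none reversed. No paired analysis was possible because each group has 1 array, and no replicate could be left out. Signals near the floor limit the folds: 12 of the 45 and 8 of the 54 genes had 1 array at the floor.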
